A study of Mus musculus with 12 samples.

Results

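The genes described here are those of autophagy and the lysosome: the ATG8 family, the proteins that start and conjugate the autophagosome membrane, cargo receptors, a master transcription factor, lysosomal membrane proteins and hydrolases, and the lysosomal proton pump. The rule names the 30 genes by symbol and sets no threshold on measured values, but the list was drawn up with earlier results of these data known. A gene was measured where the platform annotation gave a probe set exactly 1 symbol, and where a gene had several such probe sets the one with the highest mean over the 12 arrays stood for it. By this rule 27 of the 30 were measured, out of 18194 genes on the arrays, 7 of them by 1 probe set and 20 by several, 66 probe sets in all. The probe sets of Bnip3l carry a second symbol as well and were not used, and Park2 and Atp6v0c were not analysed here.

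Expression was measured on 12 Affymetrix 3' arrays, 3 for each of 4 groups of mice aged 2 months: motoneurons of Gdap1 knock-out mice, motoneurons of wild type mice, sciatic nerve of Gdap1 knock-out mice and sciatic nerve of wild type mice. The knockout lacks exon 5 of Gdap1; its protein sits in the mitochondrial outer membrane, and mutations in it cause Charcot-Marie-Tooth neuropathy. The Gdap1 probe sets lie in exons 4 and 6, outside the missing exon, and were not used here to check the genotype labels. No mouse was treated, and strain is not given in the sources used here. Motoneurons were cut out by laser and nerves were lysed whole, with a different RNA kit for each tissue, and 20 ng of RNA was amplified for every array. The design text speaks of RNA from 5 mice, of which samples were chosen by RNA amount and quality. The labels call the arrays biological replicates. Which mouse gave which array is not stated, so p-values measure the spread between these arrays.

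In autophagy, a kinase complex around ULK1 and a lipid kinase complex around Beclin 1 start a membrane sac in the cytoplasm. ATG7 and ATG3, with the ATG12, ATG5 and ATG16L1 conjugate, attach ATG8 proteins (LC3 and GABARAP) to its lipid, receptors such as SQSTM1 bring cargo to it, and PINK1, BNIP3 and FUNDC1 mark mitochondria for this route. The closed vesicle fuses with a lysosome, where cathepsins and other hydrolases work in the acid that a vacuolar proton pump (V-ATPase) keeps up. In neurons, autophagosomes form at axon ends and are carried toward the cell body, and Schwann cells digest myelin by autophagy after nerve injury.

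TFEB and its relatives, the transcription factors of lysosomal genes, are known to bind the E-box CACGTG, and the list was not chosen by this motif. It reads the same on both strands, so 1 search covers both. In RefSeq promoters of build GRCm38.p6, 20 of the 27 measured genes had an entry, and in the 250 bases before the start 8 of these 20 (40%) held the motif, against 6.86% of 27025 genes with a promoter. The 8 were Atg3, Atg5, Atg7, Bnip3, Lamp1, Ctsd, Ctsl and Atp6v1a. Lamp1, a protein of the lysosomal membrane, had 4 copies, at positions -61, -45, -28 and -15 from the start; Atg3, the enzyme that attaches ATG8 proteins to lipid, and Ctsd, the aspartic protease cathepsin D, had 2 each. Shown are the 150 bases just before the start, 5′ to 3′ on the gene's strand, for 1 gene of each stage (conjugation, lysosomal membrane, hydrolase, proton pump), with the E-box in capitals. The window for Ctsd holds 1 of its 2 copies.
Atg3, chr16:45158679-45158828, plus strand: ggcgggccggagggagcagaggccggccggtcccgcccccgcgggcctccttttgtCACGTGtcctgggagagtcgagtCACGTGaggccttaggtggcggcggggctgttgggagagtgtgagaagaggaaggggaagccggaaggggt
Lamp1, chr8:13159011-13159160, plus strand: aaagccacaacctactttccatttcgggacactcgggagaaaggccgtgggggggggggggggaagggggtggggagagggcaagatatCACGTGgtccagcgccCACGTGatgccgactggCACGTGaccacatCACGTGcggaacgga
Ctsd, chr7:142387828-142387977, minus strand: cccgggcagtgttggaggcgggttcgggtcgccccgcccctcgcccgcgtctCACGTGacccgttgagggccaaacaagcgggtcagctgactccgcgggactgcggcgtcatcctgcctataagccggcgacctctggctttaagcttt
Atp6v1a, chr16:44139260-44139409, minus strand: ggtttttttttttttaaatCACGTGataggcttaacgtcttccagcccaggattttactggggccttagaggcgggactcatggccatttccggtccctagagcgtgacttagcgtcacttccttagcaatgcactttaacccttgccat
These letters show that the motif is present. No binding was measured in this study.

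Array medians (log2) lay between 6.53 and 6.59 in motoneurons and between 8.29 and 8.40 in nerve, and all 12 arrays differed in their values. Of 10 motoneuron markers, 9 were higher in motoneurons than in nerve in both genotypes by limma, and all 8 Schwann cell markers were lower, both in values as deposited. Captured motoneurons also held oligodendrocyte transcripts. The mean level of 10 oligodendrocyte markers was 11.15 in knockout and 11.49 in wild type motoneurons, against 8.52 and 8.47 in nerve. As deposited 7 of them were higher and 3 lower in motoneurons in each genotype. The mean of 10 astrocyte markers was 10.81 in knockout and 11.09 in wild type motoneurons, against 10.27 and 10.34 in nerve. That list was mixed, with 5 higher and 5 lower in knockout and 4 higher and 5 lower in wild type. Xist was low in 1 motoneuron array, knockout replicate 2 (5.18), and high in the others (9.37 to 10.38). In nerve it was high in knockout replicate 3 and wild type replicate 2 only. Wild type motoneuron replicate 3 correlated more with knockout arrays (mean r across probe sets 0.989) than with its own group (0.987). In nerve the same held for wild type replicate 2 (0.991 and 0.985), wild type replicate 1 (0.990 and 0.989) and, by less than 0.001, knockout replicate 3. The spiked control bioB read lower in knockout arrays of both tissues, with differences of -0.54 in motoneurons and -0.92 in nerve (exact permutation p = 0.1 each, two-sided, the smallest that 3 against 3 allows).

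The first question was whether autophagy and lysosome transcripts differ in motoneurons that lack Gdap1 exon 5. None of the 27 genes passed limma at an adjusted p of 0.05 over all 45037 probe sets, where 0% of genes passed. An unadjusted p under 0.05 was reached by 6 of the 27 (Fundc1, Hexa, Becn1, Atg5, Ulk1 and Lamp2), beside 20.8% of all 18194 genes. The groups did not overlap for 7 genes, higher in knockout for Ulk1, Sqstm1 and Hexa and lower for Becn1, Atg5, Fundc1 and Lamp2, beside 25.8% of all genes (13.9% higher, 11.9% lower). Both counts are near those shares. Values were higher in knockout for 9 genes and lower for 18, with a median difference of -0.019 log2 beside 0.019 over all genes. A log2 difference of 1 is a 2-fold change, and all differences below are knockout minus wild type unless the tissues are named.

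**Figure D1:**
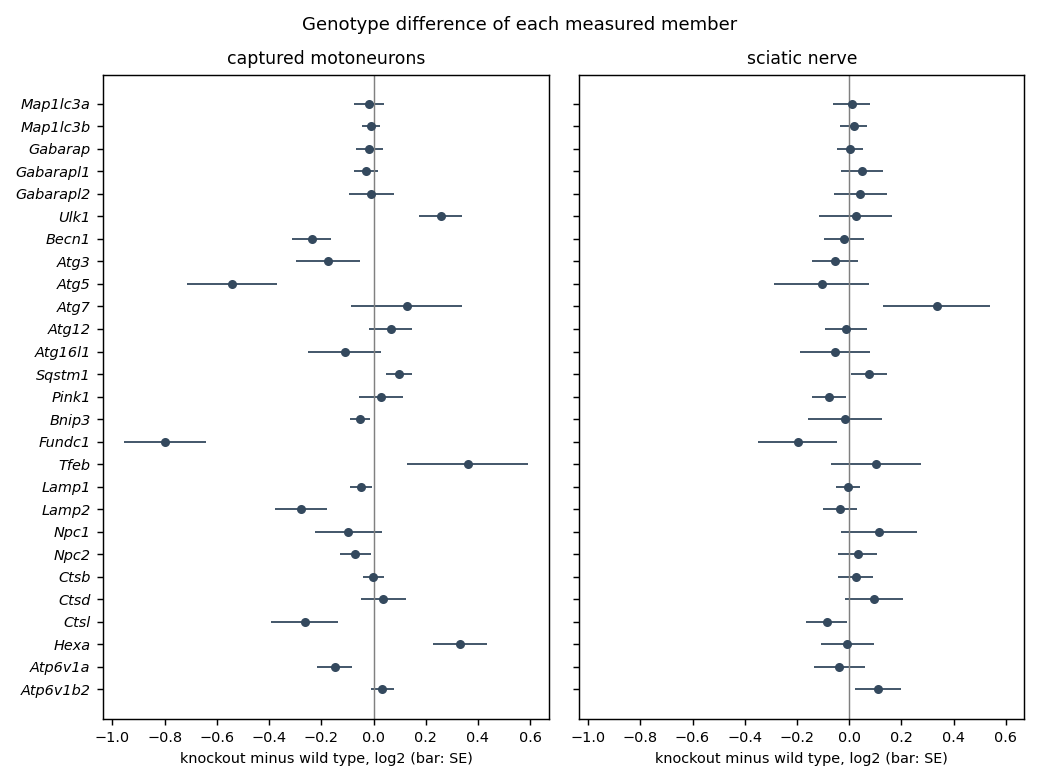
Knockout minus wild type log2 difference of each of the 27 measured genes (points) with its standard error (bars), in captured motoneurons (left) and sciatic nerve (right), in order of role. Fundc1 at -0.80 lies farthest from 0 in motoneurons, and no gene in nerve lies outside -0.20 to 0.34.

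The 5 ATG8 family genes, whose proteins coat the autophagosome membrane, differed little between genotypes. In motoneurons their differences ran from -0.03 to -0.01, and in nerve from 0.00 to 0.05. Map1lc3b (LC3B) read 14.19, 14.19 and 14.23 in knockout and 14.21, 14.23 and 14.20 in wild type motoneurons, and 14.22, 14.22 and 14.24 in knockout and 14.14, 14.22 and 14.28 in wild type nerve. Its groups overlapped in both tissues. For the family the standard errors in motoneurons were 0.03 to 0.09.

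Among the 7 genes of membrane start and conjugation, Becn1 encodes Beclin 1 of the lipid kinase complex. Becn1 read 12.87, 13.03 and 12.91 in knockout and 13.05, 13.23 and 13.25 in wild type motoneurons. The 3 knockout arrays were the lower ones, by a narrow margin, with a difference of -0.24 (SE 0.07, adjusted p = 0.187 by limma). In nerve Becn1 read 13.39, 13.52 and 13.53 in knockout and 13.48, 13.41 and 13.61 in wild type, which overlap. Its 4 other probe sets differed in motoneurons by 0.07, 0.38, -0.12 and 0.00, so the lower value was not shared by all of them.

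Atg5, part of the conjugate that directs ATG8 lipidation, read 10.77, 10.39 and 10.64 in knockout and 11.20, 11.40 and 10.83 in wild type motoneurons. The groups did not overlap, and the difference was -0.54 (SE 0.17, adjusted p = 0.190 by limma). Its 2 dimmer probe sets went the other way, at 0.31 and 0.47, and none of the 3 passed. In nerve Atg5 read 9.57, 9.95 and 9.87 in knockout and 10.13, 9.64 and 9.94 in wild type, without separation.

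Ulk1, the kinase that starts autophagosome formation, read 11.86, 11.98 and 11.95 in knockout and 11.62, 11.76 and 11.64 in wild type motoneurons. All 3 knockout arrays were above all 3 wild type arrays, by 0.26 on average (SE 0.08, adjusted p = 0.194 by limma), and its second probe set also gave 0.26. In nerve Ulk1 read 10.91, 10.71 and 10.57 in knockout and 10.58, 10.85 and 10.69 in wild type, a difference of 0.02. Atg7, the E1-like enzyme that activates ATG8 proteins, had the smallest p of the list in nerve. It read 11.93, 11.64 and 11.99 in knockout nerve and 11.70, 11.07 and 11.78 in wild type nerve, where wild type replicate 2 was the low one. The groups overlapped, and the difference was 0.34 (SE 0.20, unadjusted p = 0.143 by limma). Atg7 in motoneurons read 9.72, 10.22 and 10.04 in knockout and 9.74, 9.62 and 10.25 in wild type. Atg3, Atg12 and Atg16l1 differed by -0.17, 0.07 and -0.11 in motoneurons and by -0.05 to -0.01 in nerve.

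**Figure D2:**
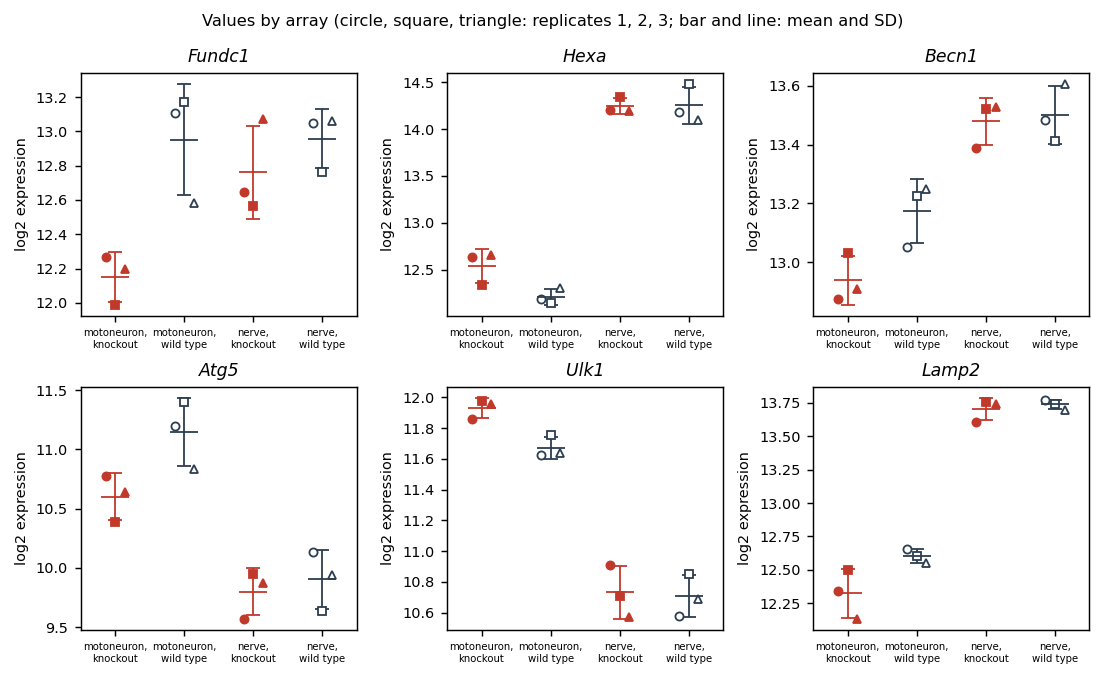
Log2 expression of the 6 genes with an unadjusted p under 0.05 between genotypes in motoneurons, in each array (circle, square and triangle for replicates 1, 2 and 3) with the group mean and SD, for motoneurons and nerve of each genotype. In motoneurons the knockout arrays lie below the wild type arrays for Fundc1, Becn1, Atg5 and Lamp2 and above them for Hexa and Ulk1, and in nerve all 6 overlap.

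Of the cargo receptor and mitophagy genes, Fundc1, a mitochondrial outer membrane receptor for mitophagy that lies on the X chromosome, had the largest difference of the list. Fundc1 read 12.27, 11.99 and 12.20 in knockout and 13.10, 13.17 and 12.58 in wild type motoneurons. The highest knockout array was below the lowest wild type array, which was replicate 3. The difference was -0.80 (SE 0.16, unadjusted p = 0.00110, adjusted p = 0.113 by limma). Its 2 other probe sets differed by -0.15 and -0.37, the same way but smaller. With the Xist level as a covariate it was -0.69 (adjusted p = 0.305 by limma), and without knockout replicate 2, the array with low Xist, -0.72 (adjusted p = 0.240 by limma). In nerve Fundc1 read 12.65, 12.57 and 13.07 in knockout and 13.05, 12.76 and 13.06 in wild type, with a difference of -0.20 (SE 0.15, unadjusted p = 0.233 by limma) and overlapping groups.

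Sqstm1, the ubiquitin-binding receptor p62, read 13.74, 13.82 and 13.74 in knockout and 13.60, 13.69 and 13.72 in wild type motoneurons. The groups just missed each other, with a difference of 0.10 (SE 0.05, adjusted p = 0.363 by limma). In nerve it read 13.45, 13.47 and 13.31 in knockout and 13.34, 13.32 and 13.36 in wild type. Pink1, the kinase that labels damaged mitochondria, read 13.69, 13.64 and 13.65 in knockout and 13.74, 13.72 and 13.43 in wild type motoneurons. In nerve Pink1 read 14.13, 14.08 and 14.25 in knockout and 14.22, 14.16 and 14.31 in wild type, and the groups overlapped (difference -0.08, unadjusted p = 0.272 by limma). Bnip3, another mitophagy receptor, differed by -0.05 in motoneurons and -0.02 in nerve. Tfeb itself read 7.63, 7.92 and 7.81 in knockout and 7.03, 7.53 and 7.73 in wild type motoneurons, and 9.20, 9.47 and 9.43 in knockout and 9.01, 9.45 and 9.33 in wild type nerve. Both pairs overlapped, and its differences of 0.36 in motoneurons (SE 0.23, adjusted p = 0.481 by limma) and 0.10 in nerve did not pass.

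Lamp2, a lysosomal membrane protein also encoded on the X chromosome, read 12.34, 12.50 and 12.14 in knockout and 12.66, 12.60 and 12.55 in wild type motoneurons. The knockout arrays were the 3 lower ones. The difference was -0.28 (SE 0.10, adjusted p = 0.223 by limma), its other 3 probe sets gave -0.75, -0.28 and -0.07, and without knockout replicate 2 it was -0.36. In nerve Lamp2 read 13.61, 13.76 and 13.74 in knockout and 13.77, 13.74 and 13.70 in wild type, which overlap. Npc1, which exports cholesterol from lysosomes, read 10.05, 10.19 and 10.26 in knockout and 10.35, 10.28 and 10.16 in wild type motoneurons, and 12.002, 11.70 and 12.11 in knockout and 11.77, 11.68 and 12.02 in wild type nerve. Neither pair separated. Lamp1 and Npc2, the soluble partner of NPC1, differed by -0.05 and -0.07 in motoneurons and by 0.00 and 0.03 in nerve.

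The hydrolase genes did not share a direction. Hexa, the alpha subunit of beta-hexosaminidase, read 12.63, 12.33 and 12.66 in knockout and 12.18, 12.14 and 12.30 in wild type motoneurons. All knockout arrays were above all wild type arrays, the closest pair by a few hundredths, with a difference of 0.33 (SE 0.10, adjusted p = 0.181 by limma). In nerve Hexa read 14.21, 14.34 and 14.19 in knockout and 14.18, 14.48 and 14.10 in wild type, a difference of -0.01. Ctsl, the cysteine protease cathepsin L, read 12.27, 12.07 and 12.10 in knockout and 12.59, 12.52 and 12.13 in wild type motoneurons, where wild type replicate 3 lay among the knockout arrays (difference -0.26, adjusted p = 0.347 by limma). In nerve Ctsl read 13.76, 13.96 and 13.83 in knockout and 13.96, 14.03 and 13.83 in wild type, and overlapped. Ctsb and Ctsd differed by 0.00 and 0.04 in motoneurons and by 0.02 and 0.09 in nerve. Of the 4 dimmer Ctsb probe sets, 2 gave 0.49 (adjusted p = 0.120 by limma) and 0.32 in motoneurons, unlike the one that stands for the gene.

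The proton pump genes of the list encode the catalytic A subunit (Atp6v1a) and the neighbouring B2 subunit (Atp6v1b2). Atp6v1a read 13.74, 13.62 and 13.76 in knockout and 13.90, 13.93 and 13.73 in wild type motoneurons, and 12.79, 12.73 and 12.68 in knockout and 12.93, 12.62 and 12.77 in wild type nerve. The groups overlapped in both tissues, with differences of -0.15 (adjusted p = 0.313 by limma) and -0.04. Atp6v1b2 read 14.08, 14.00 and 14.07 in knockout and 13.96, 14.05 and 14.03 in wild type motoneurons. In nerve Atp6v1b2 read 12.42, 12.55 and 12.38 in knockout and 12.29, 12.42 and 12.30 in wild type, overlapping, with a difference of 0.11 (SE 0.09, unadjusted p = 0.245 by limma).

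**Figure D3:**
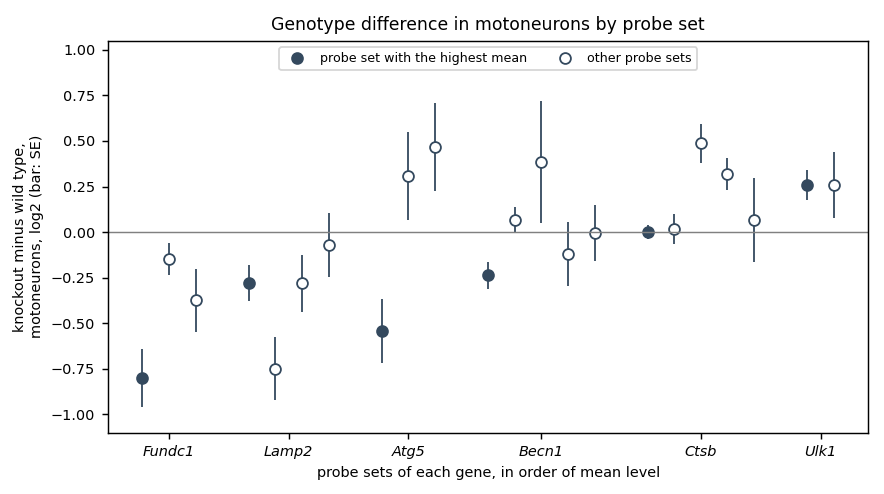
Knockout minus wild type log2 difference in motoneurons (points) with its standard error (bars) for every probe set of 6 genes, with the brightest probe set of each gene filled. The probe sets of Fundc1, Lamp2 and Ulk1 lie on 1 side of 0, while those of Atg5, from -0.54 to 0.47, and of Becn1 lie on both sides.

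The motoneuron result depended on wild type replicate 3. Without that array 5 genes passed, all lower in knockout: Fundc1 at -0.98 (adjusted p = 0.00489 by limma), Atg5 at -0.70, Ctsl at -0.40, Atg3 at -0.31 and Atp6v1a at -0.21. With all arrays, the second probe sets of Ctsl at 0.39 and Atp6v1a at 0.03 went the other way and that of Atg3, at -0.15, did not. In that setting 14% of all genes passed, 8.4% lower. With array weights Fundc1 at -0.86 and Hexa at 0.40 passed (adjusted p = 0.0223 and 0.0371 by limma), beside 8.99% of genes. With all 12 arrays in 1 fit Fundc1 alone passed (adjusted p = 0.0393 by limma), beside 2.51% of genes. In knockout motoneurons the 10 endothelial and mural markers had a mean level of 6.44 to 6.72, against 6.93 to 7.09 in wild type motoneurons (10 of 10 lower, difference -0.40, exact permutation p = 0.1, two-sided). The 10 oligodendrocyte markers were at 10.91 to 11.35 in knockout and 11.21 to 11.74 in wild type motoneurons (10 of 10 lower, exact permutation p = 0.2). The part of these markers, and of the spiked control, in the differences above was not tested. In such samples fewer cells of a type and less RNA per cell cannot be told apart.

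In sciatic nerve, rich in Schwann cells, none of the 27 genes passed between genotypes, and 0% of all genes did. By the probe set that stands for each gene, none had an unadjusted p under 0.05, beside 2.04% of all genes. For none did the groups separate, beside 6.91%. The second, dimmer probe set of Atg3 did separate, at 7.38, 7.54 and 7.64 in knockout and 7.18, 6.82 and 6.73 in wild type nerve. Its difference was 0.61 (unadjusted p = 0.0104 by limma) and did not pass, and the brightest Atg3 probe set was slightly lower in knockout. Values were higher in knockout for 14 genes and lower for 13, with a median of 0.00 beside 0.00 over all genes, and the range was -0.20 for Fundc1 to 0.34 for Atg7. Leaving out both nerve arrays with high Xist, a setting chosen after seeing the data, also gave no call.

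Whether the genotype effect differed between the tissues was tested as an interaction over 12 arrays. No gene of the list passed (0% of all genes), and 2 of the 27 had an unadjusted p under 0.05, beside 9.07% of all genes. These were Fundc1, whose effect in motoneurons minus that in nerve was -0.60 (SE 0.24, unadjusted p = 0.0249 by limma), and Hexa, at 0.34 (SE 0.15, unadjusted p = 0.0461). Their adjusted p was 0.633 and 0.659. Lamp2 at -0.24, Becn1 at -0.22 and Atg5 at -0.44 came next. The difference was negative for 21 genes and positive for 6, with a median of -0.06 beside 0.02 over all genes.

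Between the tissues, both proton pump genes and Ulk1, Atg5, Sqstm1 and Bnip3 were higher in motoneurons under every scaling tried. This holds for the probe set that stands for each gene. A dimmer probe set of each of Atp6v1b2, Ulk1 and Sqstm1 was lower there as deposited. All 8 genes of lysosomal membrane and hydrolases were lower there as deposited, a direction that turned after centring for all but Hexa in wild type. By limma 21 of the 27 genes differed in knockout mice, 6 higher and 15 lower in motoneurons, beside 83% of all genes (18.9% higher, 64.1% lower). In wild type mice 20 differed, 6 higher and 14 lower, beside 81.5% of all genes (17.7% higher, 63.7% lower). The 2 comparisons share no array. The tissues appear to have been normalized separately, since quantiles of arrays of 1 tissue coincide within 0.113 while the medians of the tissues differ by 1.77. The direction therefore rests on the scaling. Centring raised every gene's difference by the same amount, so a gene higher as deposited stayed higher by construction, while a lower one could turn. The median of all genes was -0.86 in knockout and -0.90 in wild type as deposited, 0.25 and 0.23 after quantile normalization of both tissues together, and 0.92 and 0.86 after centring each array on its median. In the same order the list's medians were -0.34 and -0.26, then 0.10 and 0.18, then 1.44 and 1.50. Of all probe sets called, 18.4% and 17.4% were higher as deposited, 54.7% and 54.6% after quantile normalization, and 69.5% and 69.0% after centring. After quantile normalization 13 genes of the list were higher and 8 lower in each genotype, and after centring 22 were higher in each and 1 lower, in wild type alone.

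Under all 3 scalings and in both genotypes 6 of the 27 genes were higher in motoneurons, beside 16.3% of all genes, and none was lower, beside 18.3%. These counts are not alike as tests, since centring could end a lower call but could not turn a higher one. They were Atp6v1b2, Atp6v1a, Ulk1, Atg5, Sqstm1 and Bnip3. Atp6v1b2 was higher by 1.60 (SE 0.06) in knockout and 1.68 (SE 0.07) in wild type mice, both with an adjusted p of at most 3.68e-07 by limma. Against the median of all genes that is 2.46 and 2.58. Of its other probe sets 2 gave 1.90 to 1.99, and the dimmest gave -4.01 and -3.65. Atp6v1a was higher by 0.97 (SE 0.06) in knockout and 1.08 (SE 0.10) in wild type, and its second probe set by 1.48 and 1.52. Each of these pump genes was above nerve in all 3 motoneuron arrays of either genotype.

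Ulk1 was higher in motoneurons by 1.20 (SE 0.11) in knockout and 0.97 (SE 0.13) in wild type, and Atg5 by 0.80 (SE 0.16) and 1.24 (SE 0.20), without overlap. The second Ulk1 probe set went the other way as deposited, at -0.31 and -0.60, and after averaging its probe sets the wild type difference of 0.18 did not pass (adjusted p = 0.164 by limma). The other probe sets of Atg5 gave 0.12 to 0.62. Sqstm1 was higher by 0.36 and 0.33, but its second probe set was at -2.27 and -2.15, and with the mean of both it was lower, at -0.95 in knockout and -0.91 in wild type. Bnip3, with 1 probe set, was higher by 0.28 in knockout (adjusted p = 0.0406 by limma), where the tissues overlapped, and by 0.31 in wild type (adjusted p = 0.0110). Its knockout call ended without any 1 of 5 arrays, at 0.18 to 0.28.

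**Figure D4:**
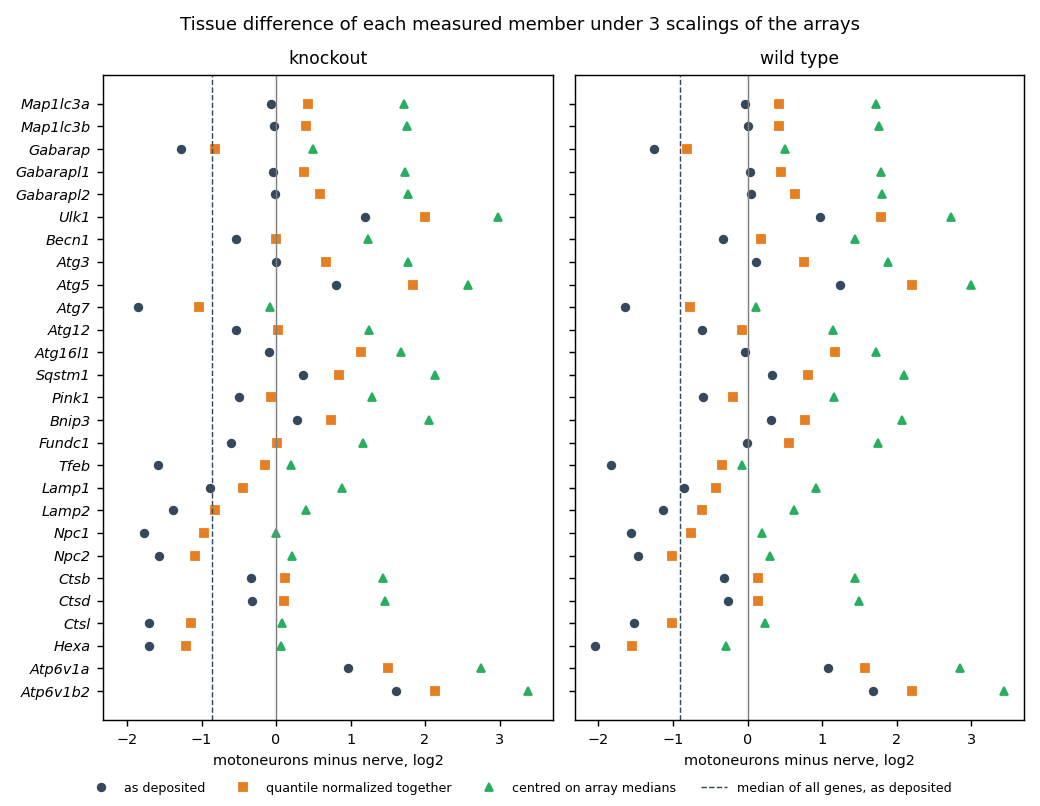
Motoneuron minus nerve log2 difference of each measured gene in knockout (left) and wild type (right) mice, with values as deposited (circles), after quantile normalization of both tissues together (squares) and after centring on array medians (triangles). Atp6v1b2, Atp6v1a, Ulk1, Atg5, Sqstm1 and Bnip3 lie above 0 under all 3 scalings, while genes such as Hexa and Ctsl lie below 0 as deposited and near 0 after centring.

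At the other end, Hexa differed by -1.70 (SE 0.09) in knockout and -2.04 (SE 0.11) in wild type as deposited, by -1.21 and -1.55 after quantile normalization, and by 0.07 and -0.28 after centring. Atg7 gave -1.86 and -1.65, then -1.03 and -0.77, then -0.08 and 0.11. One of its 3 other probe sets gave -0.01 and 0.24 as deposited and the rest -2.63 to -1.02. Tfeb gave -1.58 and -1.84 as deposited, but -0.14 and -0.34 after quantile normalization and 0.20 and -0.08 after centring, so its call held in the deposited values alone. Npc1 gave -1.77 and -1.56 as deposited and Ctsl -1.70 and -1.52, and both were at 0.01 to 0.24 after centring. Tissue groups did not overlap for any of these 5 as deposited. Against the median of all genes, 8 genes lay below it in both genotypes as deposited and after quantile normalization: Gabarap, Atg7, Tfeb, Lamp2, Npc1, Npc2, Ctsl and Hexa. Centring leaves these relative values unchanged, so it is no further check. The differences of these 8 from that median as deposited ran from -1.14 for Hexa in wild type to -0.23 for Lamp2 in wild type. By definition as many of all genes lie below that median as above it. The share of all genes that meet the same rule is not given here. As deposited the list's own median lay above it, at -0.34 beside -0.86 in knockout and -0.26 beside -0.90 in wild type. After quantile normalization it lay below, at 0.10 beside 0.25 and 0.18 beside 0.23. The 8 therefore describe single genes and not the list.

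Within the ATG8 family, Gabarap was lower in motoneurons as deposited, at -1.28 in knockout and -1.26 in wild type, and after quantile normalization (-0.82 and -0.81), but higher after centring (0.50 in each). Map1lc3a, Map1lc3b, Gabarapl1 and Gabarapl2 differed by -0.06 to 0.04 as deposited and were higher by 0.38 to 0.63 after quantile normalization. These are values of the brightest probe sets. The 3 others of Map1lc3b gave -4.34 to 0.04 in knockout and -4.19 to -0.07 in wild type, and averaged over its probe sets Map1lc3b was at -1.13 and -1.12. The lowest of these values came from its dimmest probe set, at 4.32 in knockout and 4.33 in wild type motoneurons. As deposited, the second probe sets of Map1lc3a (0.20 in knockout, 0.30 in wild type) and Gabarapl1 (0.13 and 0.30) passed as higher in motoneurons. That of Gabarapl2 (0.08 and 0.02) did not pass. Lamp1 and Lamp2 were lower as deposited, at -0.89 and -1.38 in knockout and -0.85 and -1.13 in wild type, and higher after centring. Npc2 was lower, at -1.57 and -1.47, as deposited. Ctsb and Ctsd, at -0.34 and -0.32 in knockout and -0.31 and -0.26 in wild type, turned positive under both other scalings. Becn1, Atg12 and Pink1 were lower, at -0.61 to -0.32, as deposited and higher after centring. Atg3 and Atg16l1 did not pass as deposited. Fundc1 was lower in knockout, at -0.61 as deposited (adjusted p = 0.00281 by limma), and at -0.01 in wild type, and the interaction above is the test of that difference. The direction turned with the scaling, to 0.02 and 0.56 after quantile normalization and 1.17 and 1.75 after centring. Its second probe set was higher in motoneurons, at 0.81 and 0.98 as deposited (adjusted p = 0.000119 and 0.000139 by limma), and its dimmest lower, at -1.42 and -1.104.

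Markers of several cell types differed between the tissues, among them those of macrophages, cells rich in lysosomes. All 16 microglia and macrophage markers were lower in motoneurons in both genotypes, with a mean level of 6.12 to 6.49 in knockout and 6.17 to 6.48 in wild type motoneurons, against 11.96 to 12.29 in knockout and 11.81 to 12.36 in wild type nerve. Arrays have no true zero, so no marker can be placed at 0. All 10 endothelial and mural, 8 fibroblast, 10 skeletal muscle and 6 adipocyte markers were also lower in motoneurons in both genotypes as deposited. In wild type their median differences were -4.94, -7.80, -6.67 and -8.83 in that order, beside -5.32 for microglia and macrophages. The mean level of the muscle markers ran from 8.47 to 13.80 in wild type nerve. The part of these cell types in the lysosomal values was not tested. The RNA kit cannot be told apart from the tissue. The sex-linked transcripts Xist and Eif2s3y were also unevenly spread over the tissues, and the part of sex in the tissue differences was not tested.

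A wider set of 127 measured genes in 8 lists of the same pathways was described with the same fits. In motoneurons none passed between genotypes, and 44 had an unadjusted p under 0.05, beside 20.8% of all genes. Values were higher in knockout for 69 and lower for 58, with a median of 0.04 beside 0.02 over all genes. Among genes that send hydrolases to the lysosome, the mannose 6-phosphate receptor genes M6pr and Igf2r differed by -0.58 (adjusted p = 0.108 by limma) and -0.88, and the sorting receptor gene Sort1 by 0.37. Ids, a hydrolase of glycosaminoglycans, differed by -0.45 (SE 0.06, adjusted p = 0.0904 by limma), and Lgmn, the protease legumain, by -0.83. Gaa, the lysosomal alpha-glucosidase, and Arsa, arylsulfatase A, differed by 0.23 and 0.49. Atg2a, a lipid transfer protein of the growing autophagosome, differed by 0.58 and Wdr45 by 0.30. The regulators Mcoln1, a lysosomal calcium channel, and Tsc2, an inhibitor of mTORC1, differed by 0.41 and 0.65, and Flcn by -0.40. In nerve no gene of the 127 passed, beside 0% of all genes, or had an unadjusted p under 0.05, beside 2.04%.

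Of the 8 lists, the proton pump had the highest share of genes that were higher in motoneurons under every scaling. Of its 17 other measured genes, 11 were higher and 5 lower in motoneurons in each genotype as deposited, where 18.9% of all genes were higher and 64.1% lower in knockout and 17.7% and 63.7% in wild type. Under all 3 scalings and in both genotypes 11 stayed higher, 64.7% beside 16.3% of all genes, and 2 lower, beside 18.3%. Centring could not turn those that were higher as deposited. Atp6v1g2, the neuronal form of the G subunit, was higher by 4.01 in each genotype, at 13.42 in knockout and 13.39 in wild type motoneurons, against 9.41 in knockout and 9.38 in wild type nerve. Atp6v0a1, the main neuronal form of the membrane a subunit, was higher by 1.56 (SE 0.06) in knockout and 1.46 (SE 0.11) in wild type. The 2 lower under every scaling were Tcirg1, the a3 form known from osteoclasts and macrophages, at -3.16 and -3.29, and Atp6v0e at -2.43 and -2.23. These genes did not differ between genotypes by the test, with differences in motoneurons of -0.59 (Atp6v1h) to 0.35 (Atp6v0b, adjusted p = 0.164 by limma).

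**Figure D5:**
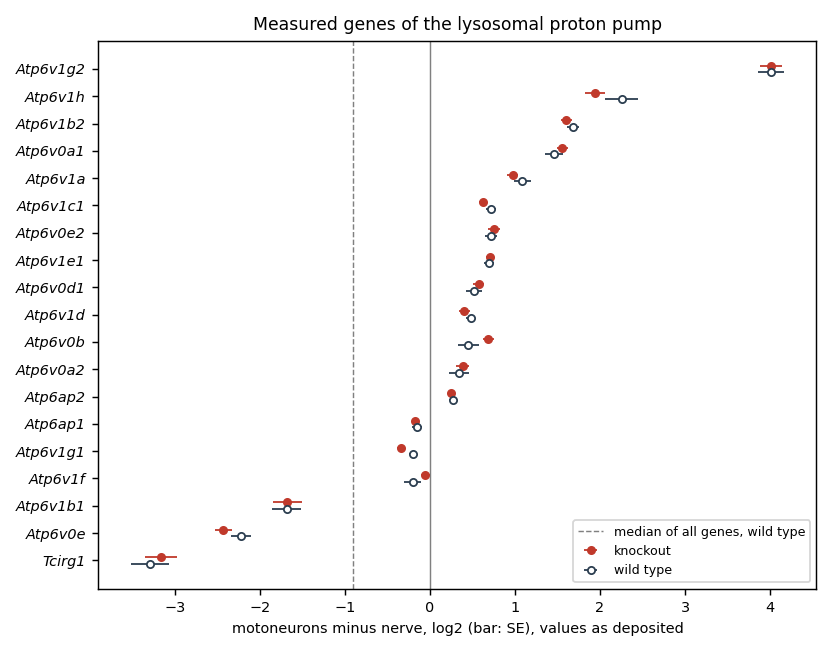
Motoneuron minus nerve log2 difference of the 19 measured genes of the proton pump (points) with its standard error (bars), as deposited, in knockout (filled) and wild type (open) mice, with the median of all wild type genes as a dashed line. The neuronal forms Atp6v1g2 at 4.01 and Atp6v0a1, at 1.56 in knockout and 1.46 in wild type, lie to the right, and Tcirg1 and Atp6v0e to the left.

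The other lists were mixed. Of 30 further hydrolase genes and their partners, 24 were lower in knockout and 23 in wild type motoneurons as deposited, with 4 higher in each, beside 64.1% and 63.7% of all genes lower and 18.9% and 17.7% higher. Under all scalings and in both genotypes 7 were lower, 23.3% beside 18.3% of all genes, and 4 higher, 13.3% beside 16.3%. Ctsh, a cathepsin, and Ctsk, the cathepsin known from osteoclasts, were among the lower, at -7.02 and -5.23 in knockout and -6.50 and -5.05 in wild type. Gla, the lysosomal alpha-galactosidase, at 1.18 and 1.12, and Lgmn, at 0.79 and 1.54, were among the higher. Of 17 lysosomal membrane and sorting genes 3 were lower under all scalings (Cd68, Laptm4a and Laptm5, of which Cd68 is also a macrophage marker here) and 1, Laptm4b, higher; Laptm4a was named after its values were seen. Of 19 genes of autophagy start and membrane supply 6 were higher and 2 lower, among them Tmem41b at 1.31 and 1.25 and Wipi1 at -3.36 and -3.56. The fusion genes Vamp8, at -6.65 and -6.37, and Fyco1, at -4.34 and -4.23, were lower under every scaling.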

How the data were processed

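The deposited values are log2 expression per probe set of each of 12 arrays, made with Affymetrix Expression Console 1.1, per the submitters' processing notes. That the scale is log2 was taken from the numbers themselves; the summarization method is not given in the sources used here, and arrays have no read depth, so precision is limited by the number of arrays. The 64 control probe sets of the 45101 were left out. Platform annotation gave 34945 of the 45037 tested exactly 1 symbol, 932 several and 9160 none. Symbols were updated through RefSeq gene identifiers (34741 matched).

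Groups came from the labels. For every comparison, lmFit and eBayes with a mean trend were run in limma 3.58.1 (R 4.3.3), two-sided and without the replicate number as a block. P-values were adjusted by Benjamini-Hochberg across the 45037 probe sets and called at 0.05, and the fits were tested on simulated data. There 67, 67 and 66 probe sets were changed by 0.5, 1 and 2 log2. Of these 2.99%, 31.3% and 92.4% were recovered between genotypes in motoneurons and 4.48%, 35.8% and 93.9% in nerve. In the interaction 2.99%, 14.9% and 74.2% were. The changed probe sets were drawn at random from all 45037, with independent noise, so these shares need not hold for the genes of the list. A gene that did not pass may still differ by an amount of the size seen here. Array measures were compared by exact permutation tests. Alternatives changed the scaling, filter, spread estimate, array weights, probe sets, covariates, block and arrays. Figures were drawn with matplotlib 3.10.9.

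The members, the wider lists and the rules were chosen with earlier results of these data known. Every array's value is given for the 5 members with the smallest unadjusted p in each genotype comparison and in the interaction, and for up to 5 higher and 5 lower members between tissues. Wider lists name up to 2 genes in each direction. Map1lc3b was added after its values were seen.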

Additional observations from a re-analysis of the deposited data

How the results depend on the processing

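Between genotypes no gene of the list changed sides of the threshold in nerve or in the interaction under the alternatives run, and the counts of genes passing stayed at 0. In nerve the median difference was -0.040 after centring, with 0.00 as reported. In motoneurons 2 genes passed with array weights, 1 with all 12 arrays in 1 fit and 0 to 5 with 1 array left out, 5 of them without wild type replicate 3; under the other settings none did. When the probe sets of a gene were averaged the median was 0.018 in motoneurons and -0.017 in the interaction. Differences of single genes that did not pass changed sign in 62 cases in nerve, 33 in motoneurons and 28 in the interaction. The cause was not tested.

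Replicate numbers were not used to pair the arrays. Deviations of same-numbered arrays from their group means correlated across genotypes at 0.026, 0.31 and 0.22 in nerve and 0.090, -0.064 and -0.079 in motoneurons. Across tissues they correlated at -0.037, 0.050 and 0.047 in knockout and 0.017, -0.053 and -0.027 in wild type. Why 2 of the nerve values were larger was not tested. With the replicate block 0 genes passed in each genotype comparison and in the interaction, and 21 in knockout and 19 in wild type between tissues.

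Between tissues the scaling moved the results by construction. The number of genes passing was 22 in knockout and 23 in wild type after centring and 21 in each after quantile normalization, and 19 to 21 in each with 1 array left out. Medians were 1.44 and 1.50 after centring, 0.10 and 0.18 after quantile normalization, -0.54 and -0.55 when probe sets were averaged, -0.41 to -0.29 and -0.29 to -0.19 with 1 array left out, and -0.29 in wild type with array weights. In knockout, centring turned these differences round: Map1lc3a 1.71, Map1lc3b 1.75, Gabarap 0.50, Gabarapl1 1.73, Gabarapl2 1.77, Becn1 1.24, Atg12 1.24, Atg16l1 1.68, Pink1 1.28, Fundc1 1.17, Tfeb 0.20, Lamp1 0.89, Lamp2 0.40, Npc1 0.00596, Npc2 0.21, Ctsb 1.44, Ctsd 1.46, Ctsl 0.075 and Hexa 0.072. Quantile normalization turned Map1lc3a 0.42, Map1lc3b 0.40, Gabarapl1 0.38, Gabarapl2 0.59, Atg12 0.029, Atg16l1 1.15, Fundc1 0.016, Ctsb 0.12 and Ctsd 0.10. In wild type, centring turned Map1lc3a 1.72, Gabarap 0.50, Becn1 1.44, Atg7 0.11, Atg12 1.15, Atg16l1 1.72, Pink1 1.16, Fundc1 1.75, Lamp1 0.91, Lamp2 0.63, Npc1 0.20, Npc2 0.29, Ctsb 1.45, Ctsd 1.50 and Ctsl 0.24, and quantile normalization Map1lc3a 0.43, Becn1 0.18, Atg16l1 1.18, Fundc1 0.56, Ctsb 0.14 and Ctsd 0.15. When probe sets were averaged, the genes that took the other sign included Atg3 -1.001 and Sqstm1 -0.95 in knockout. In wild type they included Atg3 -0.56, Map1lc3b -1.12 and Sqstm1 -0.91.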

Other observations

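Of the 6 genes with the smallest p in motoneurons, Atg5 and Becn1 held probe sets on both sides of 0. Lamp2 had its largest difference in a dimmer probe set, at -0.75 (adjusted p = 0.124 by limma). Among the 127 wider genes, Igf2r averaged 9.65 in knockout and 10.54 in wild type motoneurons, and M6pr 12.36 and 12.94, against 11.04 and 11.14 for Igf2r and 13.41 and 13.49 for M6pr in knockout and wild type nerve. The interaction for these receptor genes was -0.78 for Igf2r and -0.49 for M6pr (adjusted p = 0.583 and 0.570 by limma), with unadjusted p of 0.00352 and 0.00245. Of the 127 genes, 13 had an unadjusted interaction p under 0.05 by limma, beside 9.07% of all genes, and none passed.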
